A study of Mus musculus with 35 samples.

Results

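Embryonic stem cells pass now and then into a state that resembles the 2-cell embryo, and the 38 genes described here encode proteins that hold this state back or switch it on. They were taken by name, as chromatin regulators, from the 21887 protein-coding genes annotated on chromosomes 1 to 19, X and Y. The list was chosen with earlier results of these data known, so no count below is a test. The question was which of these genes carried binding of NELFA, a subunit of the complex that pauses RNA polymerase II shortly after it leaves a promoter. The values come from chromatin immunoprecipitation with sequencing (ChIP-seq) of the mouse embryonic stem cell line E14, kept in serum with LIF and 2i, in which a NELFA transgene with a Strep-HA tag had been switched on with doxycycline at 0.4 µg/ml for 16 h. Of the 35 libraries of the series, 7 belong to this assay: 3 made with a first HA antibody, 1 with a second, and 3 inputs, over 3 replicates. All 7 came from induced cells, so antibody signal from other sources than tagged NELFA cannot be told apart. Marker expression was not checked: the other libraries (20 of RNA-seq, 8 of ATAC-seq) are not analysed here.

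The assay gave a single list of 59485 peaks, which names no library and has neither depths nor separate values for replicates, and which of the 7 libraries entered it is not stated. No value below therefore has a replicate error, and no test between groups was possible. Each peak has a fold enrichment, a linear ratio that the authors' peak caller gave, and its median over the list was 2.09. A gene is called occupied below when the summit of a peak lay within 1 kb of either annotated boundary of the gene. A summit inside the gene but farther from both boundaries is called interior.

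Most of these proteins silence chromatin. TRIM28 is brought to endogenous retroviruses by zinc-finger proteins and recruits SETDB1, which methylates lysine 9 of histone H3, a mark that the HP1 proteins read. CAF-1 deposits histones behind the replication fork, and the variant Polycomb complex around MGA, MAX, PCGF6 and L3MBTL2 (PRC1.6) represses germline and early embryonic genes. DPPA2 and DPPA4 act the other way: they bind the promoter of Dux, the transcription factor gene that starts the 2-cell programme.

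Of the 38 regulator genes, 18 (47.4%) were occupied, where 18.8% of all protein-coding genes were. A further 3 had only interior summits, and 17 had no peak at all. In control windows of the same size, 5 to 7 kb outside each gene, 2 of the 38 (Trim28 and Setdb1) had a summit, against 8.6% of protein-coding genes. The highest fold at a boundary had a median of 2.38 over the 18 occupied members and ran from 1.95 to 6.17. Its median over the 4121 occupied protein-coding genes was 2.22. A fold of at least 3 was reached by 6 of the 18 (33.3%) and by 18.2% of those 4121 genes.

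The occupied genes are counted here by complex, in groups of 1 to 8 genes, beside 18.8% of all protein-coding genes. Differences between groups this small were not tested. All 4 genes of the LSD1 and deacetylase group were, as were 3 of the 4 that silence retroelements and Dux, 4 of 7 heterochromatin genes, 3 of 8 PRC1.6 genes, and 1 each of the pairs for G9a and TIP60-p400. Among the DNA methylation genes 1 of 4 was, and Ctcf, which encodes the insulator protein, was occupied too. Neither Chaf1a nor Chaf1b of CAF-1 was, nor were Atrx and Daxx or Dppa2 and Dppa4.

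**Figure D1:**
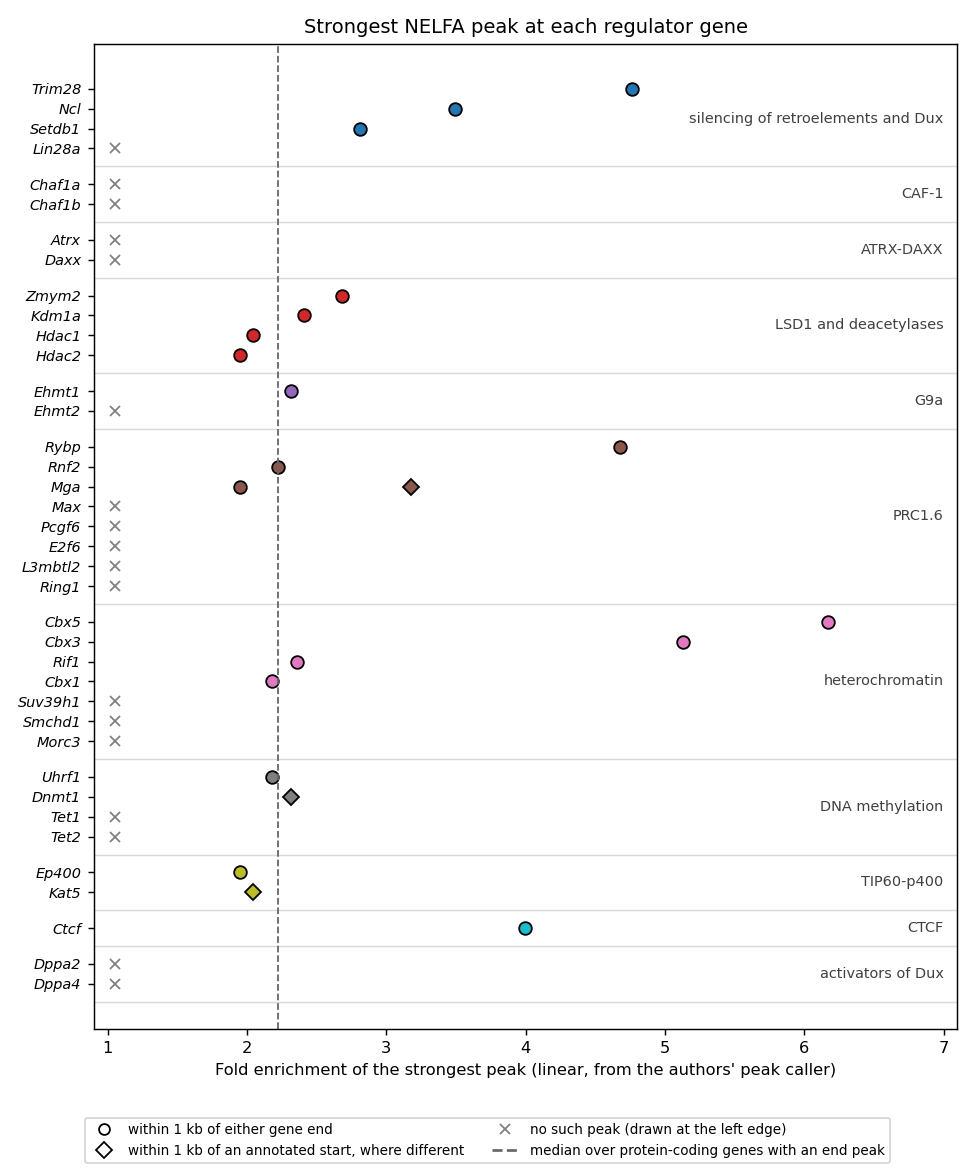
Fold enrichment (x axis, linear, as the authors' peak caller gave it) of the strongest peak at each of the 38 regulator genes, grouped by complex. Circles are peaks within 1 kb of either gene boundary, diamonds peaks within 1 kb of an annotated start where that differs, crosses mark genes with neither, and the dashed line is the median of 2.22 over occupied protein-coding genes; Cbx5, Cbx3, Trim28, Rybp and Ctcf stand highest, between 3.99 and 6.17.

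Summits lay at the starts of these genes. Starts and strands were in the RefSeq promoter table for 33 of the 38 members; Hdac1, Rif1, Rybp, Dppa2 and Dppa4 have no entry there. Of the 33, 17 (51.5%) had a summit within 1 kb of an annotated start, against 18.6% of the 17492 protein-coding genes with an entry. Every occupied member with an entry had such a summit. The 23 summits involved had a median position 61 bp downstream of the nearest start, 14 of them lay downstream, and 13 (56.5%) lay within 150 bp of the start. Over all protein-coding genes with an entry, the median position was 71 bp downstream, 65.6% of 4206 summits were downstream, and 46.6% were within 150 bp. The members' values were close to these, and the difference was not tested.

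**Figure D2:**
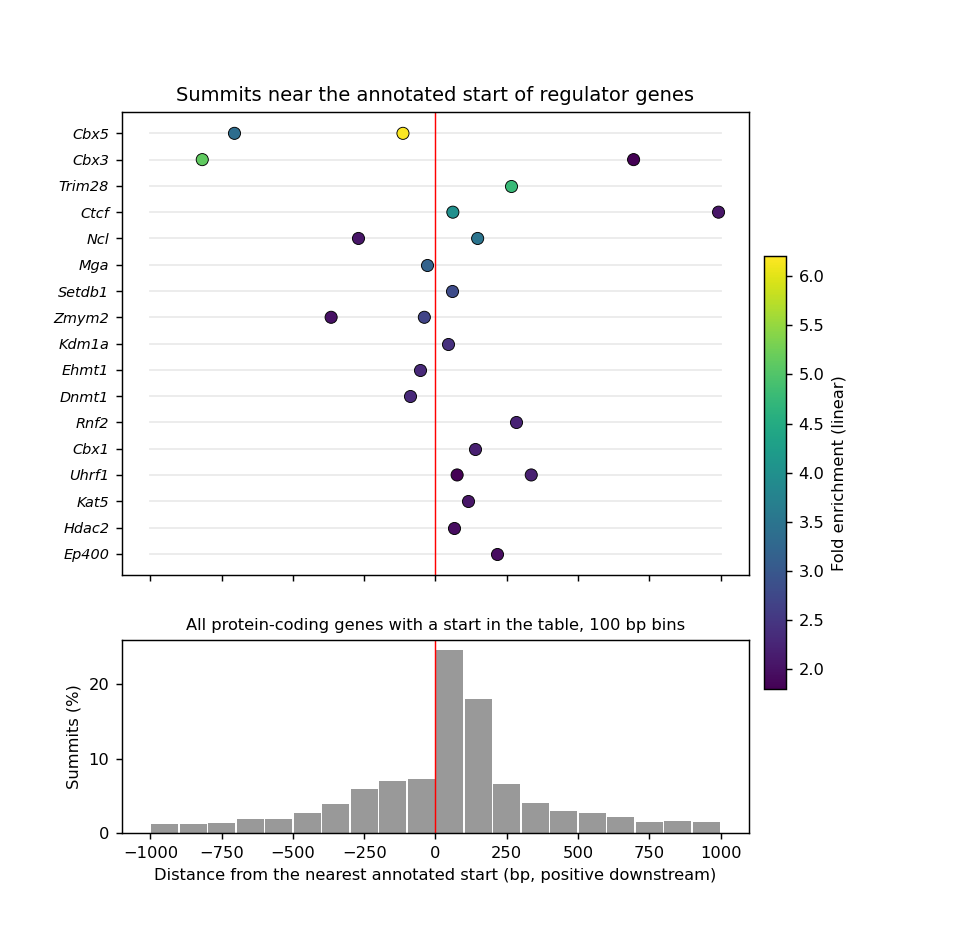
Upper panel: distance in bp (x axis, positive downstream) of each summit within 1 kb of an annotated start from the nearest start of the same gene, for the 17 regulator genes that had one, with colour for the linear fold enrichment and genes in order of their highest fold. Lower panel: the same distance for 4206 summits at all protein-coding genes with an entry, as percent of summits per 100 bp bin; most summits are close to the start, while the strongest Cbx3 summit is 818 bp and the second Cbx5 summit 705 bp upstream.

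The start positions also brought in genes that the boundary rule missed. In Dnmt1, the maintenance DNA methyltransferase gene (chromosome 9, 20907206 to 20959888), the only summit was interior, 7175 bp from the nearer boundary, and lay 90 bp upstream of the innermost of its 3 annotated starts. Kat5, which encodes the TIP60 acetyltransferase, had a single summit 1576 bp inside its higher-coordinate boundary, which lay 114 bp downstream of 1 of its 2 starts and 236 bp upstream of the other. In Mga, the scaffold of PRC1.6 (chromosome 2, 119872503 to 119970129), the boundary peak was weak, with a fold of 1.95 at 691 bp inside. Its stronger peak, of fold 3.18, was interior and 28 bp upstream of the annotated start in the table. With either a boundary or a start counted, 20 of 38 members had a peak, against 20.2% of protein-coding genes.

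The windows around 6 of these starts are shown because a summit lies inside each one. They run from 250 bases before to 50 after the start, come from the RefSeq promoter table (GRCm38.p6, the assembly called mm10), and stand 5′ to 3′ on the gene's own strand; 1 gene is shown per complex, that with the highest fold among those with a summit inside the window. Capitals mark the 21 bases centred on the summit. The windows are, on mm10, chr15:103239803-103240102 (minus strand) for Cbx5, chr2:119896978-119897277 (plus) for Mga, chr14:56886593-56886892 (plus) for Zmym2, chr9:20952574-20952873 (minus) for Dnmt1, chr2:24919560-24919859 (minus) for Ehmt1 and chr19:5609695-5609994 (minus) for Kat5.
Cbx5: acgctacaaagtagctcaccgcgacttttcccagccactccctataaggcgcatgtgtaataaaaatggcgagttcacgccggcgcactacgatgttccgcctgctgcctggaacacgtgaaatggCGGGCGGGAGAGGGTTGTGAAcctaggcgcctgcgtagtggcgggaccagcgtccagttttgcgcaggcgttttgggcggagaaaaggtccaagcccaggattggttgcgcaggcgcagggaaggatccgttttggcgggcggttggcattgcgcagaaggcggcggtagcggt
Mga: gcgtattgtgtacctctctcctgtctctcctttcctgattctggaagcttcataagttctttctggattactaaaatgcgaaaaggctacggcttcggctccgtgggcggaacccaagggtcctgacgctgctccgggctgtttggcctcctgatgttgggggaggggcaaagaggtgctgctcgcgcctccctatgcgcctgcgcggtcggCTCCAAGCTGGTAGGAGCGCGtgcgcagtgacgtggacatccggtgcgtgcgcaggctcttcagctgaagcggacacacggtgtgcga
Zmym2: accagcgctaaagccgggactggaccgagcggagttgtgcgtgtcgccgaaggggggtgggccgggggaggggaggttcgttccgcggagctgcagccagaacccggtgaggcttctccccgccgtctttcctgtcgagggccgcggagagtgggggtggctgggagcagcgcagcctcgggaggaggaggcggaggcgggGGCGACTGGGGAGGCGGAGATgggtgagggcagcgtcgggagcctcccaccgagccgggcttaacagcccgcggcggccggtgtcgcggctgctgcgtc
Dnmt1: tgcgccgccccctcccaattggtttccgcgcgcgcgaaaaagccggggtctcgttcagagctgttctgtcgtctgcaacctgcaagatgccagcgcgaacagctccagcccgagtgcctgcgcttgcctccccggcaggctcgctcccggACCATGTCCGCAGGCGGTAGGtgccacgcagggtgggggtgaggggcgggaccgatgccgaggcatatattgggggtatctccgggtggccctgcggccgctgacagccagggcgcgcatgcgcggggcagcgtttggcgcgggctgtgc
Ehmt1: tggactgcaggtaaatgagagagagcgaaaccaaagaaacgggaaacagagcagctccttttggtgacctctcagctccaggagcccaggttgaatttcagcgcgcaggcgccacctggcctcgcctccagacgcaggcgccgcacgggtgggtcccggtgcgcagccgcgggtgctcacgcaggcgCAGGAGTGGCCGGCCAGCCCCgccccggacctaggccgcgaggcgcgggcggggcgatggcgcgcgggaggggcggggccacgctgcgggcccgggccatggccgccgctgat
Kat5: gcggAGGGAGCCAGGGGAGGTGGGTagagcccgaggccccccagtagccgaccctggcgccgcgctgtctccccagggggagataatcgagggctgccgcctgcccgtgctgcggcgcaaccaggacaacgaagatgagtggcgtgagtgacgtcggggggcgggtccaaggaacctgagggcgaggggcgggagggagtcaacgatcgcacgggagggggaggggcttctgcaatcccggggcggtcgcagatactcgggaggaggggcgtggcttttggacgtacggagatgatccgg

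In these windows the summit stood 114 bp before the start at Cbx5, 28 at Mga, 39 at Zmym2, 90 at Dnmt1, 53 at Ehmt1 and 236 at the shown start of Kat5. The bases G and C made up 60% (Mga) to 73.3% (Zmym2) of them, with 24 to 34 CG dinucleotides in each. Such CG-rich starts were common among the regulators, with or without a peak. Over the 44 windows of the 33 members, the median was 29.5 CG dinucleotides both in the 22 windows with a summit within 1 kb and in the 22 without. In all protein-coding windows it was 24 with a summit and 10 without. Of the protein-coding windows richest in CG dinucleotides (25 to 67 each), 35.7% had a summit within 1 kb, and 15 of the 28 member windows in that range did. The lowest count among members was 2, at the outermost start of Dnmt1, and the highest 57, at Tet2, which had no peak.

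**Figure D3:**
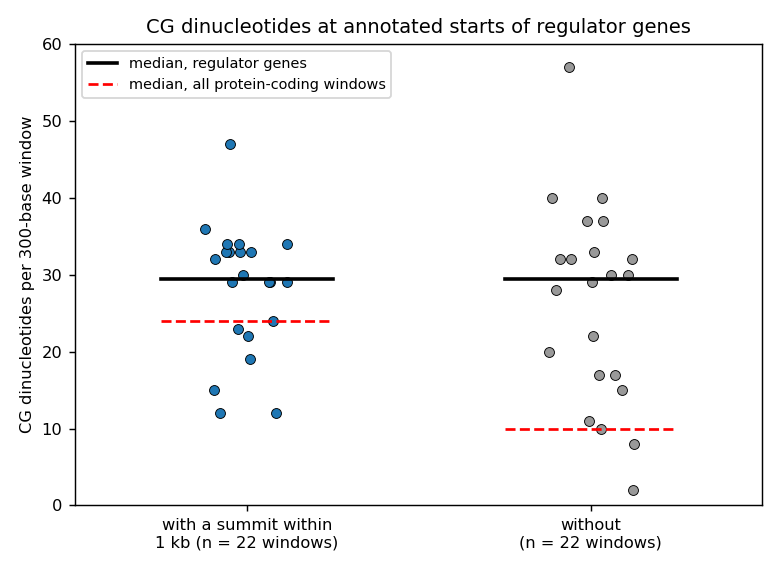
Number of CG dinucleotides (y axis) in each 300-base window at the annotated starts of the regulator genes, for the 22 windows with a summit within 1 kb and the 22 without; points are windows, spread sideways for legibility. Solid bars are the members' medians, 29.5 in both columns, and dashed lines the medians of all protein-coding windows, 24 with a summit and 10 without.

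Short motifs were searched on both strands of the 44 windows. GGGCGG, the core of the binding site of SP1, was in 34 (77.3%), against 46.2% of all protein-coding windows and 66.5% of those with a summit within 1 kb. CACGTG, the E-box that MAX and MGA bind, was in 6 (13.6%, against 7.84%), and in the Cbx5 window above it lies 136 bp before the start. Among member windows, GGGCGG was in 17 of the 22 with a summit within 1 kb and in 17 of the 22 without. CACGTG was in 2 of the 22 with such a summit and in 4 of the 22 without. The E2F-type motif GCGGGAA, whose first bases can overlap the end of GGGCGG, was in 4 (9.09%, against 5.95%). CCAAT was in 34.1% (against 38.2%), CCGGAAG in 13.6% (against 11.6%), and TATAAA in none of the 44 (against 12.6%). Windows of 1 gene can overlap, as the 3 of Daxx and the 2 of Zmym2 do. By gene, GGGCGG was in 28 of 33, CCAAT in 13, CACGTG in 5, and CCGGAAG and GCGGGAA in 4 each. Of the 17492 protein-coding genes with an entry, GGGCGG was in 8611, CCAAT in 7402, CACGTG in 1559, CCGGAAG in 2265 and GCGGGAA in 1197. These matches only describe letters in the windows.

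In the group that silences retroelements and Dux, 3 of 4 genes had a peak at the start. Trim28 (chromosome 7, 13024152 to 13031032) had 1 peak, of fold 4.77 and 1087 bp wide, with its summit 265 bp downstream of the start. Ncl encodes nucleolin, which works with TRIM28 on LINE1 RNA to keep Dux silent, and had 2 peaks, a fold of 3.49 at 148 bp downstream of its start and one of 2.04 at 270 bp upstream. Setdb1 (chromosome 3, 95323525 to 95357202) had 1 peak of fold 2.81, 59 bp downstream. All 3 stood above the median of occupied protein-coding genes. Lin28a, an RNA-binding protein gene that also acts on Dux through the nucleolus, had none, and its nearest summit was 35.5 kb away.

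Both summits of Ncl also lay within 1 kb of a boundary of the long noncoding RNA gene C130036L24Rik, and that of Trim28 was 172 bp downstream of the start of the gene model Gm31649. The list has no strand, so a peak between such starts cannot be assigned to one gene. Among the 18 occupied members, 6 had at least 1 boundary summit that was also within 1 kb of another gene's boundary, and for 3 (Trim28, Cbx3 and Cbx5) the other gene was protein-coding. With such shared peaks left out, occupied members fell from 18 to 13 of 38. The share of protein-coding genes fell from 18.8% to 12.4%, so shared peaks were not particular to the members.

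Of the 3 HP1 genes, 2 had the strongest peaks among the regulators, and both shared them with a neighbour. Cbx5 (HP1 alpha; chromosome 15, 103191546 to 103239904) had a fold of 6.17, above that of 98.5% of occupied protein-coding genes, 114 bp upstream of its start. This summit was 431 bp upstream of the start of Hnrnpa1, which encodes an RNA-binding protein and is read in the opposite direction. By annotated boundary it lay nearer to Hnrnpa1, at 23 bp, than to Cbx5, at 62 bp. A second peak of fold 3.36 lay 705 bp upstream of the Cbx5 start and 160 bp downstream of that of Hnrnpa1. Cbx3 (HP1 gamma; chromosome 6, 51470154 to 51483704) had a fold of 5.13 in an interval 2560 bp wide. Its summit was 818 bp upstream of the nearest Cbx3 start and 47 bp downstream of a start of Hnrnpa2b1, another RNA-binding protein gene. The summit thus lay nearer to the neighbour. Cbx1 (HP1 beta) had 1 peak of fold 2.18, 138 bp downstream of its start, near no other gene.

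Of the other heterochromatin genes, Rif1, whose product sets replication timing, had 1 peak of fold 2.36 at 91 bp inside its lower-coordinate boundary. Smchd1, which encodes a structural maintenance protein of the inactive X chromosome, had 1 interior peak of fold 2.59, 78290 bp downstream of its start. Suv39h1, a methyltransferase gene on the X chromosome, had none, with the nearest summit 406 kb away, and on that chromosome 2.17% of protein-coding genes were occupied. Morc3, an ATPase gene that silences retroviruses, had its nearest summit 37.2 kb away.

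In the LSD1 and deacetylase group the folds ran from 1.95 to 2.68, on both sides of the median of 2.22 over occupied protein-coding genes. Zmym2, a zinc-finger gene whose product binds the LSD1 complex, had 2 peaks at its boundary, with folds of 2.68 and 2.0, and 2 in the interior, with folds of 2.04 and 1.86. The demethylase gene Kdm1a (LSD1) had a fold of 2.41, 45 bp downstream of its start, Hdac1 had 2.04 at 27 bp inside its higher-coordinate boundary, and Hdac2 had 1.95 at 66 bp downstream of its start. Hdac1 differed from the others in its interior, where 8 summits lay between 6977 and 17769 bp from its lower-coordinate boundary, with folds of 1.82 to 2.22. Their −log10 q, the authors' significance value, was 4.33 at the strongest and at most 2.99 at the others, where the lowest in the list was 1.31. Of the 6455 protein-coding genes of 10 to 30 kb, 1.39% had at least as many interior summits, a limit taken from Hdac1 itself. No summit lay at the annotated pseudogene copy Hdac1-ps.

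Within PRC1.6 the folds were uneven. Rybp (chromosome 6, 100228565 to 100287358) had a fold of 4.67 in a peak 25 bp outside its higher-coordinate boundary, with peaks of 2.36 and 1.82 beside it, 461 bp outside and 591 bp inside. Rnf2, one of the ubiquitin ligase genes of Polycomb, had a fold of 2.22 at 282 bp downstream of its start, and Mga was described above. Ring1, the other ligase gene, had no peak within 2 kb, and its nearest summit was 2.09 kb away. Max, Pcgf6, E2f6 and L3mbtl2, which encode the DNA-binding partner, the defining finger protein, the E2F repressor and the MBT-domain subunit, had their nearest summits 70.4, 17.0, 63.0 and 77.7 kb away. The pseudogene copy Rybp-ps on chromosome 13 had 2 summits within 1 kb, the higher with a fold of 3.72. Of the 6 annotated copies of Cbx3, Cbx3-ps7 had 1 summit, of fold 1.95, and the other 5 had none. All deposited peak names carry the tag MAPQ0, whose meaning is not stated. The handling of multiply aligned reads is not given in the sources used here, and an effect of such copies was not tested.

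Ehmt1 and Ehmt2 encode the partner enzymes GLP and G9a, which methylate lysine 9 of histone H3, and 1 of them was occupied. Ehmt1 had a fold of 2.31 at 53 bp upstream of its start, and the nearest summit to Ehmt2 was 38.3 kb away. In the DNA methylation group, Uhrf1, which guides DNMT1 to newly copied DNA, had peaks of 2.18 and 1.82, at 336 and 76 bp downstream of its 2 starts. Dnmt1 had its start peak at 2.31, the same deposited value as the peak of Ehmt1. The dioxygenase genes Tet1 and Tet2, which act against methylation, had none, with the nearest summits 12.2 and 31.8 kb away. Ep400, the remodeller gene of the TIP60 complex, had a fold of 1.95 at 217 bp downstream of its start, and Kat5 had 2.04.

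Ctcf (chromosome 8, 105636474 to 105682922) had a fold of 3.99 at 61 bp downstream of its start in an interval of 1254 bp, and 4 interior summits of 1.91 to 2.04. It lies on the chromosome with the most summits per megabase, 59.9, where 58.2% of protein-coding genes were occupied. Chromosome 6, with Rybp and Cbx3, had 55.5 summits per megabase and 43.0% of its protein-coding genes occupied. On the other chromosomes that hold members, the density was 10.5 to 45.2. Without chromosomes 6 and 8, 15 of 35 members were occupied, against 15.4% of protein-coding genes.

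Among the members, strong boundary folds went with densely covered 1 Mb windows. The 5 members with the highest boundary folds, Cbx5, Cbx3, Trim28, Rybp and Ctcf, all lay in 1 Mb windows with 30 or more peaks. There, 5 of 9 members were occupied (39.4% of protein-coding genes), with folds of 3.99 to 6.17. In the less covered windows 13 of 29 were (13.5% of protein-coding genes), with folds of 1.95 to 3.49, Ncl being the highest. For occupied protein-coding genes the medians were 2.36 and 2.13. At annotated starts the split was less clear: Dnmt1 had a fold of 2.31 in a window of 43 peaks, and Mga 3.18 in one of 9. Nearer to the genes the order was also less clear. In the 100 kb on either side, Cbx5 had 5 summits, Cbx3 11, Trim28 3, Rybp 9 and Ctcf 30. Setdb1, of fold 2.81, had 18 there, and the median over protein-coding genes was 2. The part of local peak density in the members' folds was not tested.

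Interior summits, which long genes collect more readily, were found in 10 members. They were in 1 of 5 members under 10 kb, against 5.12% of protein-coding genes of that length, 3 of 16 between 10 and 30 kb (16.3%), 5 of 13 between 30 and 100 kb (29%) and 1 of 4 above 100 kb (59.3%). Ehmt1, Ep400 and Atrx, each over 100 kb, had none. In Mga, Dnmt1, Kat5 and Uhrf1 an interior summit lay within 150 bp of an annotated start. In Zmym2, Smchd1, Cbx3 and Ctcf none did, and Hdac1 and Rybp have no start in the table.

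**Figure D4:**
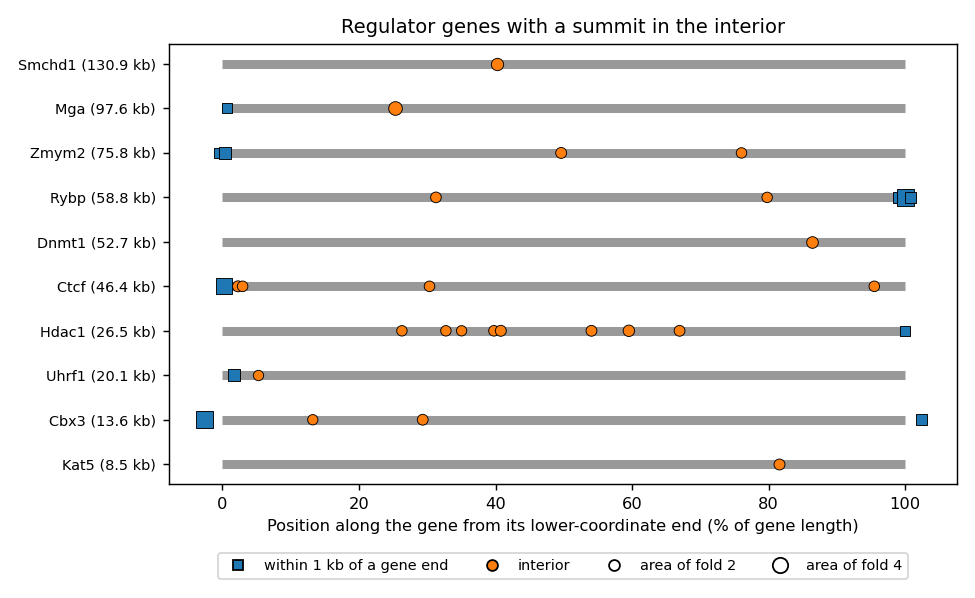
Position of summits along the 10 regulator genes with an interior summit, as percent of gene length from the lower-coordinate boundary (x axis); squares are summits within 1 kb of a boundary, circles interior ones, and the area of a marker grows with the linear fold enrichment. Hdac1 has 8 interior summits, while Smchd1, Mga, Dnmt1, Kat5 and Uhrf1 have 1 each.

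Among the genes with no peak at a boundary or a start were several pairs of partners. Chaf1a and Chaf1b, the large and middle subunits of CAF-1, had their nearest summits 11.7 and 7.18 kb away. Atrx and Daxx, which deposit a histone variant at repeats and telomeres, had theirs 50.5 and 33.5 kb away. Atrx lies on the X chromosome, where 2.17% of protein-coding genes were occupied. Dppa2 and Dppa4, neighbours on chromosome 16, were 106 and 96.8 kb from the nearest. Over all unoccupied members, the number of summits in the 100 kb on either side had a median of 2 (0 to 20). This median was 2.5 for occupied members (0 to 30) and 2 for protein-coding genes. Of the genes just named, Chaf1a had 2 such summits, Chaf1b 5, Atrx 1, Daxx 20, Dppa2 0 and Dppa4 2. Whether the surroundings bear on a missing peak was not tested. Occupied members were longer than unoccupied ones, with a median of 40.1 kb against 19.8 kb. The same lengths were not worked out for all protein-coding genes. At the edge of the 1 kb limit, the boundary summit of Mga at 691 bp was the farthest that alone made a gene occupied, and Kat5 at 1576 bp was the nearest member left out.

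Some of the peaks were weak. The −log10 q of a peak is the authors' significance value, and the lowest in the list was 1.31. With a −log10 q of at least 4 required, 12 of 38 members were occupied, against 9.81% of protein-coding genes, and Cbx1, Ep400, Hdac1, Hdac2, Mga and Uhrf1 dropped out. Cbx1 and Uhrf1 missed that limit narrowly, at 3.98. Cbx5 had the highest value, 58.2, followed by Cbx3 at 40.5, Trim28 at 34.9, Rybp at 33.5 and Ctcf at 23.7.

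Other genes of the same complexes, from a list of 103 names also chosen with earlier results known, were occupied in 52 cases (50.5%, again beside 18.8%). All 14 partners on chromosomes 6 and 8 were occupied, among them Ezh2, Pcgf1, Tfdp1, Ing3, Smarcad1, Atf7ip, Trim24, Sap30, Asf1b, Tet3 and Dppa3. Without these chromosomes 38 of 89 (42.7%) were, beside the 15.4% above. With annotated starts counted too, 56 of 103 partners had a peak, which adds the chaperone gene Nasp (start fold 3.4), the HUSH gene Tasor (3.09), the G9a cofactor gene Wiz (2.36) and the cohesin gene Stag1 (1.77); these 4 were named after their values were seen. The TIP60-p400 partners were occupied in 11 of 16, led by the reader gene Yeats4 (fold 3.0), Morf4l1 (2.72), Ing3 (2.63) and Epc1 (2.31). Partners of PRC1.6 and related Polycomb genes were in 7 of 12, led by the methyltransferase gene Ezh2 (3.77), Pcgf1 (3.4), Tfdp1 (3.31) and Eed (3.09). Without chromosomes 6 and 8 they were in 4 of 9. Of the PRC1.6 members themselves, 3 of 8 were occupied. The histone chaperone list was occupied in 5 of 8, with Hjurp (3.54), Rbbp4 (2.27), Asf1b (2.0) and Asf1a (1.95) at the top. Peaks at Hjurp were not confined to its boundaries: beside 4 boundary summits it had 20 interior ones and 4 in its control windows. Rbbp4 encodes the small subunit of CAF-1, whose other subunits had no peak.

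Heterochromatin partners were occupied in 6 of 9, led by the methyltransferase gene Kmt5b (4.54), the remodeller gene Smarcad1 (2.54), Baz1b (2.18) and Hells (2.13). Partners of TRIM28 and SETDB1 were in 7 of 15, with the SETDB1 cofactor gene Atf7ip (4.13), Trim24 (3.77), Morc2a (2.77) and Zfp809 (2.27) first. The CoREST, NuRD and SIN3 list was in 8 of 17, led by Mbd3 (2.95), Phf21a (2.59), Gatad2b (2.5) and Sap30 (2.5), and the nucleolar list in 4 of 6, with Nop56 (3.77), Nop58 (2.86), Fbl (2.04) and Lin28b (2.04). DNA methylation partners were occupied in 3 of 9, Tet3 (2.27), Dppa3 (1.82) and Mbd1 (1.82), and in 1 of 7 without chromosomes 6 and 8. Without these chromosomes, the CoREST, NuRD and SIN3 list was in 5 of 14 and the TRIM28 and SETDB1 list in 5 of 13. Heterochromatin partners were then in 5 of 8, TIP60-p400 partners in 9 of 14 and the histone chaperone list in 4 of 7. Of the cohesin and architecture list 1 of 8 was occupied, Yy1 (2.09), and of the 3 G9a partners none had a boundary peak.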

How the data were processed

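ChIP-seq of HA-tagged NELFA in induced E14 cells was read from 1 deposited peak list that names no library, in an assay with 4 immunoprecipitated and 3 input libraries. Trim Galore 0.4.2, Bowtie2 2.2.9, SAMtools 1.4, MACS2 (without a version) and mm10 are named in the submitters' processing notes. Neither the call settings nor which libraries entered, and how, is given in the sources used here. The deposited fold enrichment is a linear ratio, and the deposited significance used is a −log10 q-value; the p-value column was not used. Depth is unknown.

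Summits (start plus deposited offset) were set against RefSeq gene boundaries of GRCm38.p6 and, for 33 members, against starts and strands of the RefSeq promoter table. All 38 members were matched by symbol, and all are named in the report. Members, complexes and partner lists were chosen with earlier results of these data known, so no count is a test, and no test was made. Partners are named where occupied, at most 4 a list, in order of fold. Copies of members were looked up by name (-ps). The scoring was checked on planted summits. Scripts ran under Python 3.11.15 with pandas 2.3.3 and numpy 2.4.6, and matplotlib 3.10.9 drew the figures. Alternatives covered the window, peak strength, overlap of intervals, densely covered windows (30 or more peaks in 1 Mb), chromosomes 6 and 8, annotated starts, and peaks shared with another gene; counting boundaries and starts together was added after the data were seen.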

Additional observations from a re-analysis of the deposited data

How the results depend on the processing

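The share of occupied members stayed above that of protein-coding genes in each of the 10 alternatives run. Members, their median boundary fold and the share of protein-coding genes were 16, 2.54 and 16.1% with a 500 bp window, 19, 2.36 and 21.8% with 2 kb, and 14, 2.75 and 12.4% when the weaker peaks, below the list's median fold, were dropped. They were 12, 3.15 and 9.81% at a −log10 q of 4 or more, 13 (of 29), 2.22 and 13.5% outside densely covered windows, and 15 (of 35), 2.31 and 15.4% without chromosomes 6 and 8. With peaks near no other gene's boundary they were 13, 2.22 and 12.4%. With annotated starts only, the median fold was 2.41, while with boundaries and starts together the share of protein-coding genes was 20.2%. Overlap of intervals gave 18 members. Occupied partners numbered 34 without those weaker peaks, 27 at a −log10 q of 4 or more and 31 (of 77) outside densely covered windows. Members with an interior summit fell to 4 under either limit on strength and to 6 outside densely covered windows. Control windows held a summit for 0 members at 500 bp and 4 at 2 kb. Boundary summits on the gene's side numbered 15 of 24, and 8 of 14 at a −log10 q of 4 or more. No share over protein-coding genes was counted for gene's-side summits, nor for interior or control-window summits under these alternatives. Interior summits were not counted with starts or unshared peaks, which do not define them. Leaving out a library was not possible with 1 list. No paired analysis was possible because the list holds no value per library. Without depth, a missing peak does not show that a gene was unbound.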
